A study of Mus musculus with 4 samples.

Results

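The Hippo pathway is a chain of kinases that restrains growth, and its 10 core genes were examined in mouse mammary tumours labelled Nr1d1+/+ or Nr1d1-/-, where Nr1d1 encodes the clock repressor REV-ERB alpha. They were taken by symbol from the deposited counts: Mob1a, Mob1b, Lats1, Lats2, Stk3, Stk4, Sav1, Yap1, Wwtr1 and Tead1. All 10 were found among the 23282 rows of each count table, and all 10 passed the filter on low counts that left 14801 tested genes. The list was drawn up because Mob1a was among the largest falls in the libraries labelled Nr1d1-/-. The genotype difference of Mob1a therefore chose the list, and the differences of all 10 members come from the same comparison. They are given as descriptions with standard errors and no p-value, and nothing is inferred from how many passed a threshold.

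The tumours came from female FVB mice at 14 weeks of age that carried PyMT, a viral oncogene that drives mammary carcinoma, in 2 samples labelled Nr1d1+/+ and 2 labelled Nr1d1-/-. Every mouse carried PyMT, so there was no tumour-free control, and the labels give neither the promoter that drives PyMT nor the exons that the Nr1d1 null allele lacks. Whether each replicate is its own animal is not stated, and a p-value here covers the spread among the samples at hand alone, and that spread may be technical. Total counts per library ran from 15905404 to 19116279.

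In textbook terms, the kinases MST1 and MST2, encoded by Stk4 and Stk3, bind the scaffold SAV1 and phosphorylate the kinases LATS1 and LATS2 and their activators MOB1A and MOB1B. Active LATS phosphorylates the co-activators YAP, encoded by Yap1, and TAZ, encoded by Wwtr1, which are then held in the cytoplasm or degraded. Unphosphorylated YAP and TAZ enter the nucleus, where they bind TEAD factors and switch on genes of growth, adhesion and matrix. Transcript levels do not report this phosphorylation, so the counts describe how much of each component's RNA was present and not whether the pathway was on.

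The promoters of Mob1a and Mob1b are shown because, of the 4 paralog pairs here, this one differed most in its log2 folds, and that of Yap1 because it was the most abundant member per length. RefSeq sequences of GRCm38.p6 held an entry for 8 of the 10 genes, with none for Stk3 and Tead1. Each line gives the 250 bases before the annotated start, 5′ to 3′ on the gene's own strand. Capitals mark AGGTCA, the core of sites bound by REV-ERB receptors, GGAATG, the core of TEAD sites, and CACGTG, an E-box bound by the clock activators, each searched on both strands.
Mob1a: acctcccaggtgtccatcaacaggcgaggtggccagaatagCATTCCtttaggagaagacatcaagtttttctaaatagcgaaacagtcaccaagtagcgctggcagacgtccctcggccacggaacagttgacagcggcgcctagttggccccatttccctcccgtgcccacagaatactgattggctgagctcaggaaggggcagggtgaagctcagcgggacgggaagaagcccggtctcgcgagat
Mob1b: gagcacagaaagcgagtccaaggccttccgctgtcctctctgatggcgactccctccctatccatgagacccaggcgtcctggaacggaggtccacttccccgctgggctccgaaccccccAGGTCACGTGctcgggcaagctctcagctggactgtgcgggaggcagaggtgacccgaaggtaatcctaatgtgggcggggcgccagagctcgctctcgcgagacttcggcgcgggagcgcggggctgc
Yap1: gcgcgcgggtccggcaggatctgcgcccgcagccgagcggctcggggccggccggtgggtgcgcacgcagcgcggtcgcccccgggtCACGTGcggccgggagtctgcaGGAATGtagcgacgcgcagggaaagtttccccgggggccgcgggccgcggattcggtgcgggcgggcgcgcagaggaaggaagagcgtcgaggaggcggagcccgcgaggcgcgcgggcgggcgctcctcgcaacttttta

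The Mob1a window, chr6:83325789-83326038 on the plus strand, held 1 TEAD core, written as its reverse complement CATTCC, with its first base at position -209, counted so that -1 is the base before the start. The Mob1b window, chr5:88720621-88720870 on the plus strand, held an AGGTCA from position -129 that overlaps a CACGTG from position -125. The Yap1 window, chr9:8004597-8004846 on the minus strand, held a CACGTG from position -163 and a GGAATG from position -141. Among all 32851 promoter entries of this length, 14.02% held AGGTCA, 12.64% held GGAATG and 6.02% held CACGTG. Of the other 5 genes with an entry, Sav1 and Wwtr1 held a TEAD core, Stk4 and Lats2 held an E-box, and Lats1 held none of the searched letters. The second Wwtr1 entry also held an AGGTCA. The second Lats2 entry held no motif. These are matches of letters and not measured binding.

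Levels are given in CPM, counts brought to a common library size with TMM, a factor per library that allows for a few abundant RNAs. Each log2 fold divides Nr1d1-/- by Nr1d1+/+ and has a standard error (SE). A gene was called at an edgeR adjusted p under 0.05 over all tested genes, which held for 33.9% of them, 17.3% lower and 16.5% higher. Under scaling by library size alone, 29.8% were called lower and 8.65% higher, so that 22.5% of calls were higher in place of 48.8%, and the median log2 fold of all genes was -0.38 in place of -0.01. Values of the targeted gene did not separate the genotypes. In replicate order, Nr1d1 stood at 20.2 and 10.3 CPM in Nr1d1+/+ tumours and at 10.6 and 12.8 CPM in Nr1d1-/- tumours (log2 fold -0.37, edgeR adjusted p = 0.4365, SE 0.35). Directions rest on the sample labels.

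Of the 10 core genes, 7 were called lower, Mob1a, Lats1, Lats2, Stk3, Stk4, Sav1 and Yap1. By edgeR and by DESeq2, 0 were called higher, and 0 were higher at an unadjusted edgeR p under 0.05. The other 3, Mob1b, Wwtr1 and Tead1, were not called. Over all tested genes 17.3% were called lower, but the same comparison chose Mob1a, so the count is a description. The median log2 fold of the 10 was -1.23, beside -0.01 for all tested genes. The genotypes did not overlap for 9 of the 10 genes, 8 with both Nr1d1-/- libraries below and 1, Tead1, with both above. Among all tested genes 36.2% lay below and 34.4% lay above without overlap. Leaving out Nr1d1+/+ replicate 2 left 4 of the 10 called lower, because Lats2, Stk4 and Sav1 no longer passed, and leaving out Nr1d1+/+ replicate 1 left 6, without Lats2. In those fits 7.62% and 11.8% of all tested genes were called lower. In bulk tissue, fewer cells that express a gene and less of its RNA per cell cannot be told apart.

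**Figure D1:**
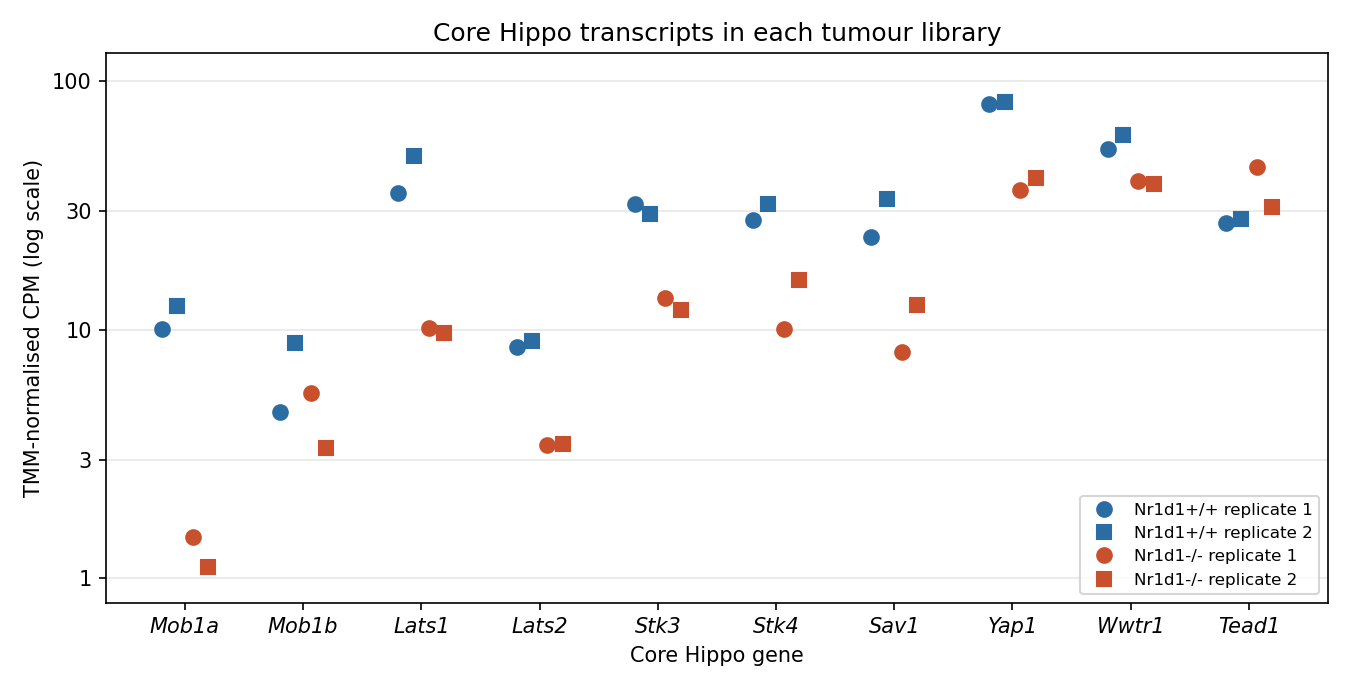
TMM-normalised CPM on a log axis for each core Hippo gene, with 1 point per library, blue for Nr1d1+/+ and red for Nr1d1-/-, circles for replicate 1 and squares for replicate 2. Mob1a is near 11.3 CPM in blue and near 1.29 CPM in red, Mob1b points of both genotypes mix, and Tead1 is the member with its red points above its blue ones.

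MOB1 adaptors bind and activate LATS, and Mob1a had the lowest fold of the list. Reads assigned to it numbered 213 and 261 in the Nr1d1+/+ tumours and 20 and 18 in the Nr1d1-/- tumours, in replicate order, which is 10.1, 12.5, 1.47 and 1.12 CPM. Both Nr1d1-/- libraries were thus far below both Nr1d1+/+ libraries. The log2 fold was -3.13 (SE 0.41), or 8.77-fold lower, and it ranked 60 from the lowest among 14801 tested genes. At this depth 20 counts carry an exact 95% Poisson interval of 12.2 to 30.9 and 18 counts one of 10.7 to 28.4, for counting error only. Mob1b, which encodes the closest relative, had 4.68 and 8.86 CPM against 5.57 and 3.35 CPM in the same order. Its libraries overlapped between the genotypes, and the replicates of each genotype lay as far apart as the genotypes did. The Mob1b log2 fold was -0.61 (SE 0.44). It was -1.05 when Nr1d1+/+ replicate 1 was left out, -0.11 when Nr1d1+/+ replicate 2 was, and -1.01 with library size only; it was called in none of the alternatives.

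The balance between the MOB1 paralogs, taken within each library, differed between the genotypes, and a scaling factor per library cannot move it. The share rests on the Mob1a counts whose fall chose the list, so it is a description. Mob1a made up 68.3% (95% interval 62.8 to 73.4) and 58.5% (53.8 to 63.1) of the pair's counts in the Nr1d1+/+ libraries. In the Nr1d1-/- libraries its share was 20.8% (13.2 to 30.3) and 25% (15.5 to 36.6). These are exact Clopper-Pearson intervals for counting error only. Per base of transcript, Mob1a stood 4.37 and 2.87 times as high as Mob1b in Nr1d1+/+ and 0.535 and 0.677 times as high in Nr1d1-/-. Their sum was 14.8 and 21.4 CPM in Nr1d1+/+ and 7.04 and 4.47 CPM in Nr1d1-/-. The coding sequences of both genes matched at 79.63% of aligned bases, with a longest identical run of 20 bases, and their longest coding transcripts shared no stretch of 50 bases. Mob1a lies on chromosome 6 from 83326016 to 83343776 (GRCm38, plus strand) with no annotated gene overlapping it. Mob1b lies on chromosome 5 from 88720855 to 88764220, plus strand.

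LATS kinases are the last step before YAP and TAZ. Lats1 was at 35.5 and 50.1 CPM in Nr1d1+/+ and at 10.2 and 9.74 CPM in Nr1d1-/-, with a log2 fold of -2.10 (SE 0.26). The Nr1d1+/+ libraries differed from each other, yet the lower was still above 3 times the level of either Nr1d1-/- library. Lats2 was scarcer, at 8.56 and 9.0 CPM against 3.45 and 3.48 CPM, with a log2 fold of -1.34 (SE 0.34). Its replicates lay close together in both genotypes. Lats1 gave 80.6% and 84.8% of the LATS counts in Nr1d1+/+ and 74.7% and 73.7% in Nr1d1-/-, so Lats1 remained the main LATS transcript in all 4 libraries. Lats2, on chromosome 14 from 57689662 to 57758388 (minus strand), shares 2955 exonic bases with the gene model Gm49361 on the same strand, so how its reads were assigned is uncertain.

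The upstream kinases and their scaffold were lower in both Nr1d1-/- libraries as well. Stk3, which encodes MST2, had 32.2 and 29.2 CPM in Nr1d1+/+ against 13.4 and 12.0 CPM in Nr1d1-/- (log2 fold -1.27, SE 0.23). Stk4, which encodes MST1, had 27.6 and 32.0 CPM against 10.1 and 15.9 CPM (log2 fold -1.19, SE 0.28). Stk3 took 53.8% and 47.7% of this pair's counts in Nr1d1+/+ and 57.0% and 43.1% in Nr1d1-/-, so the shares of both genotypes overlapped, unlike those of the MOB1 pair. Sav1, the scaffold that brings MST to LATS, had 23.7 and 33.5 CPM against 8.14 and 12.6 CPM (log2 fold -1.46, SE 0.30). Sav1 (chromosome 12, 69965012 to 69987002, minus strand) shares 1336 exonic bases with Atl1 on the opposite strand. The sources do not state a strand setting for the counting, so Sav1 is uncertain. Atl1 itself was low, at 2.65 and 2.78 CPM in Nr1d1+/+ and 0.880 and 0.869 CPM in Nr1d1-/-.

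Of the co-activators, Yap1 fell and Wwtr1 was not called. Yap1 was at 80.9 and 82.8 CPM in Nr1d1+/+ and at 36.4 and 41.0 CPM in Nr1d1-/-, with a log2 fold of -1.08 (SE 0.18), the most precise of the 10. Wwtr1 was at 53.4 and 60.9 CPM against 39.9 and 38.5 CPM, with a log2 fold of -0.54 (SE 0.19). Wwtr1 did not overlap between the genotypes, but its difference missed the threshold and passed it with library size only (-0.93). Yap1 gave 60.3% (95% interval 58.4 to 62.1) and 57.6% (55.8 to 59.4) of the pair's counts in Nr1d1+/+. In Nr1d1-/- it gave 47.7% (44.7 to 50.8) and 51.6% (48.8 to 54.3), so the co-activators' counts were closer to equal there.

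**Figure D2:**
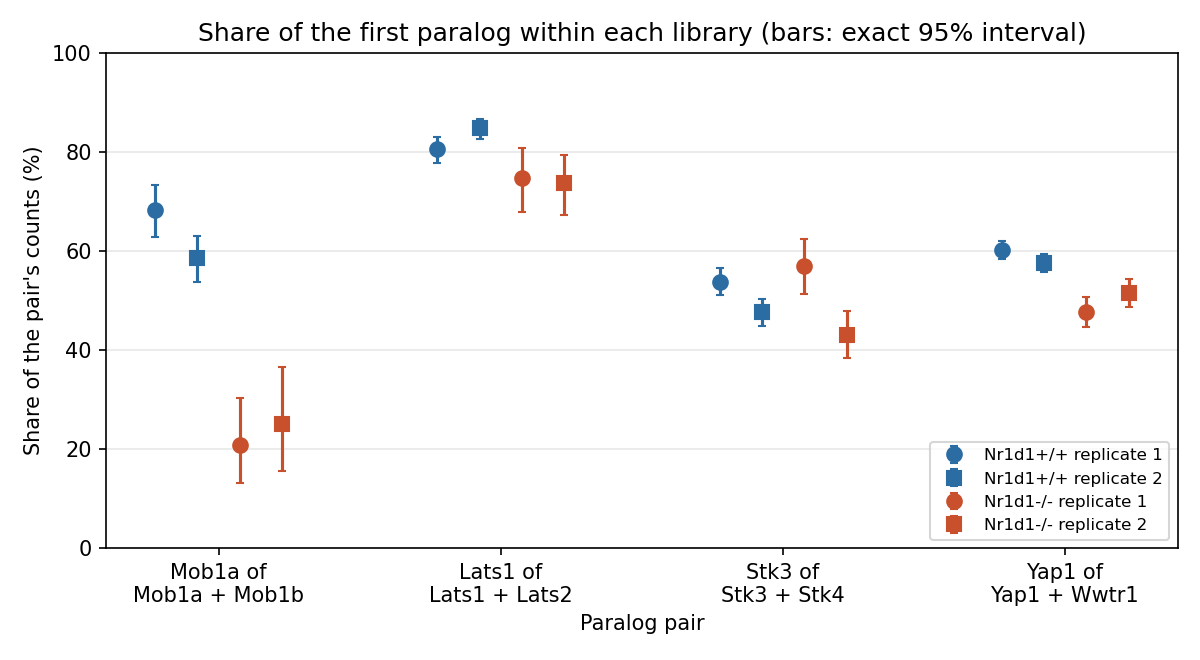
Share of the first paralog in the counts of 4 paralog pairs, in percent, with 1 point per library (blue Nr1d1+/+, red Nr1d1-/-, circles replicate 1, squares replicate 2) and exact 95% intervals for counting error. The Mob1a share lies between 58.5% and 68.3% in Nr1d1+/+ and between 20.8% and 25% in Nr1d1-/-, while the Stk3 shares of both genotypes overlap.

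Tead1, a DNA-binding partner of YAP and TAZ, was the member that lay higher in Nr1d1-/-. It had 26.9 and 27.8 CPM in Nr1d1+/+ against 45.3 and 31.3 CPM in Nr1d1-/-, with a log2 fold of 0.48 (SE 0.24) that was not called. The height of Nr1d1-/- replicate 1 sets much of this value: without that library the log2 fold was 0.19. The same library held 715 CPM summed over 8 skeletal muscle markers, beside 3.22 and 2.01 CPM in Nr1d1+/+ and 4.22 CPM in Nr1d1-/- replicate 2, all 8 being highest there, and their part in the Tead1 value was not tested. Without Nr1d1-/- replicate 2 the log2 fold of Tead1 was 0.71 and passed the threshold, as it did with the GC and length trends removed (0.81).

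Levels can be compared between members only per length, here CPM per 1000 bases of the longest coding transcript, as mean ± SD of 2 libraries. In Nr1d1+/+ the order was Yap1 (19.6 ± 0.311), Wwtr1 (12.2 ± 1.14), Sav1 (11.3 ± 2.74), Stk3 (10.5 ± 0.731), Lats1 (5.94 ± 1.43), Stk4 (5.70 ± 0.601), Tead1 (2.74 ± 0.0671), Mob1a (2.56 ± 0.388), Lats2 (1.69 ± 0.0597) and Mob1b (0.755 ± 0.329). Neighbours from Wwtr1 to Stk3, Lats1 and Stk4, and Tead1 and Mob1a lay within their spread. In Nr1d1-/- the order began again with Yap1 (9.28 ± 0.766) and Wwtr1 (8.34 ± 0.212) and ended with Lats2 (0.667 ± 0.00399), Mob1b (0.498 ± 0.175) and Mob1a (0.293 ± 0.0560). Mob1a thus went from above Lats2 and Mob1b to the lowest mean of the list, below Mob1b in both libraries, by a distance close to the spread of Mob1b.

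Transcript length and base composition moved with the genotype difference over the whole data, and by median the core genes were longer and poorer in GC. Their median transcript length was 4944 bases and their median GC content 44.9%, beside 3042 bases and 50.1% for all tested genes. Sav1 (2524 bases) and Stk3 (2914 bases) were shorter than the median of all genes, and Lats2 (52.2%) and Yap1 (50.3%) were richer in GC. After each library's GC and length trends were taken out, Mob1a had a log2 fold of -2.71, Lats1 -1.61, Sav1 -1.32, Lats2 -1.20, Stk3 -0.98 and Yap1 -0.90. These 6 were still called lower, and 12.2% of all genes were called lower in that fit. Stk4, at -0.82, no longer passed. Mob1b and Wwtr1 came to -0.05 and -0.12, so that most of their small difference went with the trends. The median of the 10 was then -0.94, beside -0.09 for all genes.

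**Figure D3:**
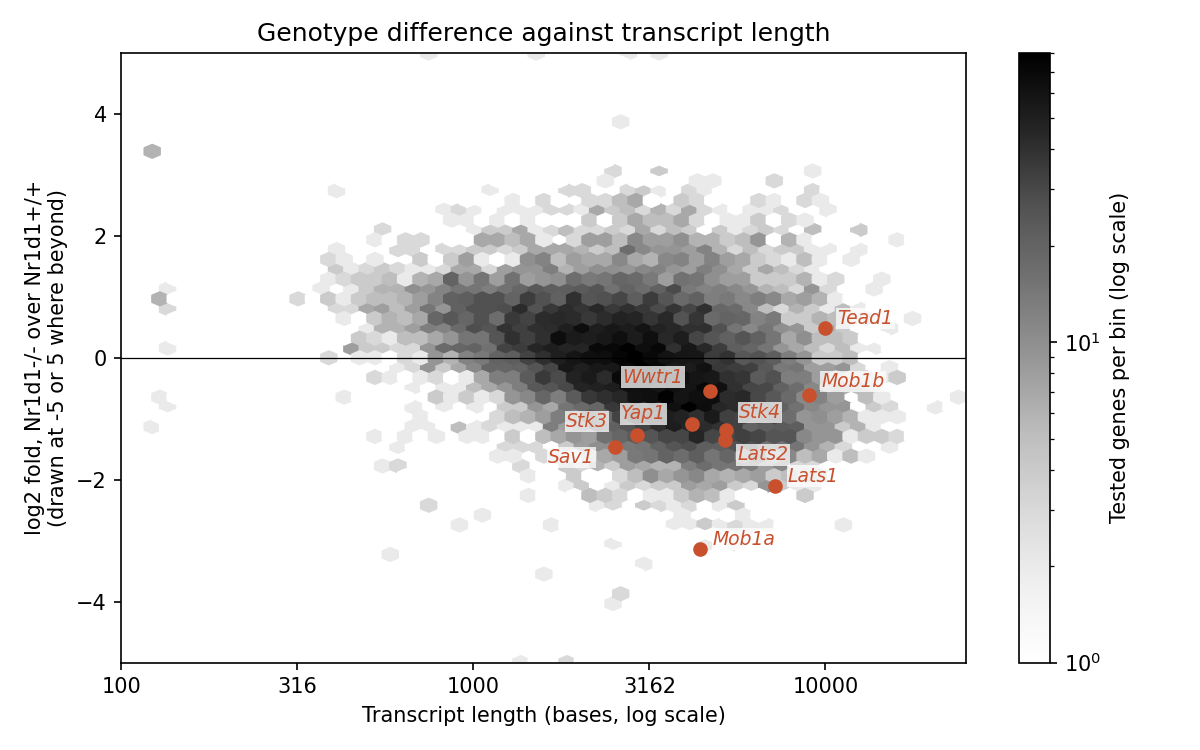
Log2 fold of tested genes (grey bins, darker for more genes) against transcript length in bases on a log axis, with the 10 core genes in red. Longer transcripts lie lower on average, and Mob1a, at 4412 bases and a log2 fold of -3.13, lies far below genes of like length, while Tead1, at 9964 bases, lies above 0.

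**Figure D4:**
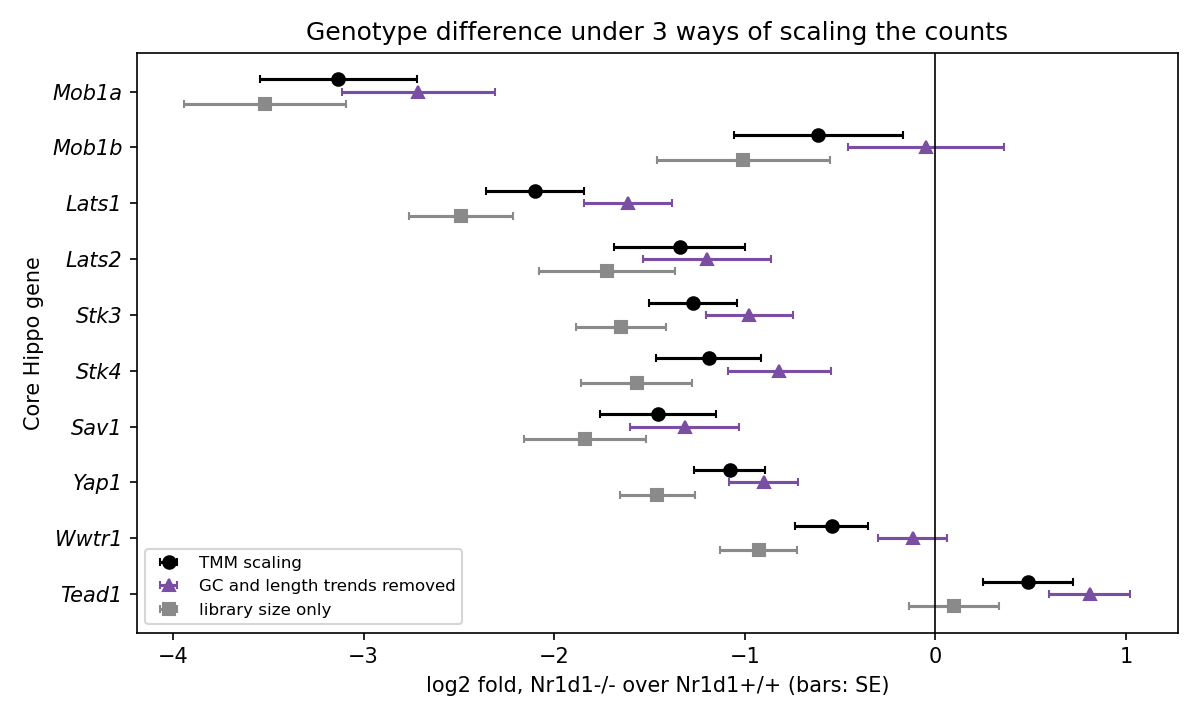
Log2 fold of each core gene with its SE under TMM scaling (black circles), with GC and length trends removed (purple triangles) and under library size alone (grey squares). Mob1a runs from -3.51 to -2.71 over these fits and Tead1 from 0.10 to 0.81.

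Around the core, 87 further genes of the pathway were tested, and 29 were called lower, 8 higher and 50 did not pass. That is 33.3% lower and 9.2% higher, beside 17.3% and 16.5% of all tested genes, and their median log2 fold was -0.47 beside -0.01. Strip2, Vgll1 and Vgll2 had too few counts to be tested. The wider genes were longer than the average too, with a median of 3995 bases. With the trends removed, 23 were called lower and 8 higher at a median of -0.40, where 12.2% and 10.3% of all genes were. Under library size alone, 47 were called lower and 4 higher, where 29.8% and 8.65% of all genes were. Without Nr1d1+/+ replicate 2, 15 were called lower and 4 higher, where 7.62% and 6.75% of all genes were. The counts of each list that follow stand beside the same 17.3% lower and 16.5% higher among all genes. These lists were chosen from pathway knowledge and not by value, though with earlier results of these data known.

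Inputs to MST and LATS had 11 of 24 tested members called lower, 2 higher and 11 not passing (all genes 17.3% lower, 16.5% higher), at a median log2 fold of -0.66. Taok1, a kinase that activates MST, fell from 62.4 and 68.5 CPM to 21.2 and 21.4 CPM (log2 fold -1.62, edgeR adjusted p = 0.00207, SE 0.20). Its relatives went the other way. Taok2 rose from 56.4 and 57.7 to 94.7 and 104.4 CPM (log2 fold 0.80, edgeR adjusted p = 0.0102, SE 0.18) and Taok3 from 46.0 and 52.8 to 101.0 and 75.9 CPM (log2 fold 0.84, edgeR adjusted p = 0.0157, SE 0.21). With library size only, Taok2 (0.42) and Taok3 (0.45) stayed above 0 but did not pass. Without Nr1d1+/+ replicate 1 neither passed, and Taok2 missed also without Nr1d1+/+ replicate 2 and Taok3 without Nr1d1-/- replicate 1. Dlg5, a polarity scaffold, fell by 1.61 on the log2 scale (SE 0.22, edgeR adjusted p = 0.00237), the protocadherin gene Fat1 by 1.43 (SE 0.23, edgeR adjusted p = 0.00371) and Map4k3, a kinase that can act on LATS in parallel to MST, by 1.47 (SE 0.23, edgeR adjusted p = 0.00339). Nf2, which encodes merlin, the membrane protein that recruits LATS, was at 112.7 and 96.6 CPM against 82.1 and 69.2 CPM and did not pass (log2 fold -0.47, edgeR adjusted p = 0.0837), but was called lower with library size only (-0.85, edgeR adjusted p = 0.00607). Without Nr1d1+/+ replicate 1, 7 inputs were called lower (all genes 11.8%), and without Nr1d1+/+ replicate 2, 5 were (all genes 7.62%). Scaling by library size gave 17 (all genes 29.8%) and 0 higher.

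STRIPAK, a phosphatase complex that inactivates MST, had 4 of 15 tested members called lower, 1 higher and 10 not passing (all genes 17.3% lower, 16.5% higher). With library size only the counts were 8 lower and 0 higher (all genes 29.8% and 8.65%). Slmap, the subunit that binds MST, fell from 97.7 and 158 CPM to 46.5 and 47.8 CPM (log2 fold -1.44, edgeR adjusted p = 0.00409, SE 0.24). The STRIPAK-associated kinase genes Stk24 and Stk26 fell by 1.24 (edgeR adjusted p = 0.00764) and 1.41 (edgeR adjusted p = 0.0247). Stk26 missed the threshold without Nr1d1+/+ replicate 2, without Nr1d1-/- replicate 2, and with the trends removed (-0.99, edgeR adjusted p = 0.0915). Ppp2r1b, a phosphatase scaffold, passed narrowly (log2 fold -0.71, edgeR adjusted p = 0.0492) and missed the threshold in 11 of the 14 alternatives. Mob4, a STRIPAK subunit of the MOB family, rose from 31.4 and 36.2 CPM to 70.5 and 47.9 CPM (log2 fold 0.81, edgeR adjusted p = 0.0289, SE 0.23), with 0.42 and no pass under library size only. It passed without Nr1d1-/- replicate 2 but not without any of the other libraries. By median, the 15 tested members stood at -0.41 on the log2 scale. Dropping Nr1d1+/+ replicate 2 brought this median to -0.22, where all tested genes stood at -0.01 in both fits.

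Of the relatives of MOB1, 3 MOB family genes were called in the direction opposite to Mob1a. Mob3a rose from 17.4 and 18.5 CPM in Nr1d1+/+ to 42.1 and 41.1 CPM in Nr1d1-/- (log2 fold 1.21, edgeR adjusted p = 0.00418, SE 0.21). Mob3b rose from 28.9 and 21.2 CPM to 69.4 and 45.7 CPM (log2 fold 1.20, edgeR adjusted p = 0.0103, SE 0.26). Mob2, which encodes a partner of the NDR kinases, rose from 13.5 and 14.4 CPM to 30.4 and 24.1 CPM (log2 fold 0.96, edgeR adjusted p = 0.0164, SE 0.24). All 3 had both Nr1d1-/- libraries above both Nr1d1+/+ libraries, as 34.4% of all tested genes did. With library size only, Mob3a (0.83) and Mob3b (0.82) still passed and Mob2 (0.58) did not, nor did Mob2 with the trends removed (0.58). The NDR kinase gene Stk38 fell from 54.2 and 55.5 CPM to 35.1 and 29.6 CPM (log2 fold -0.76, edgeR adjusted p = 0.0189, SE 0.20) but not with the trends removed (edgeR adjusted p = 0.0601). Of the 6 tested relatives 3 were called higher and 1 lower (all genes 16.5% and 17.3%), at a median of 0.62. Mob3a passed whichever library was left out. Without Nr1d1+/+ replicate 2 it was the only relative called, as Mob3b then missed the threshold. Mob2 missed it also without Nr1d1+/+ replicate 1 or Nr1d1-/- replicate 1, and Stk38 without Nr1d1+/+ replicate 1 or Nr1d1-/- replicate 2.

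Proteins that hold, mark or degrade YAP and TAZ had 7 of 18 tested members called lower, 2 higher and 9 not passing (all genes 17.3% lower, 16.5% higher). Amotl1 and Amotl2 encode motins, which tether YAP at junctions, and they moved apart. Amotl1 rose from 321 and 280.3 CPM to 854 and 597 CPM (log2 fold 1.27, edgeR adjusted p = 0.00415, SE 0.22), and Amotl2 fell from 26.4 and 29.0 CPM to 7.70 and 14.0 CPM (log2 fold -1.34, edgeR adjusted p = 0.0115, SE 0.30). The 14-3-3 proteins, which bind phosphorylated YAP, were also uneven. Ywhae fell from 1634 and 1278 CPM to 822 and 619 CPM (log2 fold -1.02, edgeR adjusted p = 0.0104, SE 0.22), whereas Sfn rose from 92.5 and 104.5 CPM to 195 and 248 CPM (log2 fold 1.17, edgeR adjusted p = 0.00363, SE 0.19). Sfn did not pass with the trends removed (0.47, edgeR adjusted p = 0.097). Fbxw11, which encodes a ubiquitin ligase adaptor for YAP and TAZ, fell by 1.19 (edgeR adjusted p = 0.00761). Csnk1d, which encodes a kinase that helps mark YAP for this ligase, fell by 0.88 (edgeR adjusted p = 0.0114). Leaving out Nr1d1+/+ replicate 1, Nr1d1+/+ replicate 2 or Nr1d1-/- replicate 2 left 4 called lower each time, where 11.8%, 7.62% and 15.6% of all genes were. Csnk1d was lost in the first case and Ywhae in the third.

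Among the TEAD factors and their VGLL partners, 1 of 5 tested was called lower, a share near the 17.3% of all genes. It was Tead3, which fell from 20.3 and 24.9 CPM to 11.3 and 9.93 CPM (log2 fold -1.09, edgeR adjusted p = 0.0134, SE 0.26). It missed the threshold without Nr1d1+/+ replicate 2 (edgeR adjusted p = 0.0955). Tead2 was the main TEAD transcript in all 4 libraries, at 48.2 and 41.5 CPM per 1000 bases in Nr1d1+/+ and 39.7 and 37.0 in Nr1d1-/-, between 71.7% and 79.0% of the TEAD total per length. Its CPM gave a log2 fold of -0.23 with SE 0.17 (edgeR adjusted p = 0.342), and it was called lower with library size only (-0.60, edgeR adjusted p = 0.0197). Tead4 gave -0.35 (SE 0.32, edgeR adjusted p = 0.415). Tead1 supplied 4.401% and 4.83% of the TEAD total per length in Nr1d1+/+ and 8.88% and 6.72% in Nr1d1-/-.

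Genes commonly used as readouts of YAP and TAZ had 7 of 22 tested members called lower, none higher and 15 not passing (all genes 17.3% lower, 16.5% higher), at a median log2 fold of -0.65. None was called higher by edgeR, while 3, named after their values were seen, lay above 0 at an unadjusted edgeR p under 0.05: Rbms3, Igfbp3 and Ccdc80, with log2 folds of 1.15, 0.79 and 0.60. Not called either, Myof, F3, Nt5e and Ankrd1 lay below 0 at the same unadjusted threshold, with log2 folds of -0.61, -0.68, -1.76 and -2.01. DESeq2 called 1 target higher, and edgeR with upper quartile scaling called 2 higher. The list holds Lats2, a core member, and Amotl2 and Ptpn14, which the regulators' list holds too. Cyr61, also called Ccn1, an immediate target that encodes a matrix protein, fell from 69.3 and 76.0 CPM to 43.9 and 23.3 CPM (log2 fold -1.12, edgeR adjusted p = 0.0176, SE 0.28), narrowly missing the threshold without Nr1d1+/+ replicate 2 (edgeR adjusted p = 0.0513). Its neighbour in function Ctgf, also called Ccn2, was at 27.4 and 33.5 CPM against 27.5 and 23.3 CPM and did not pass (log2 fold -0.26, edgeR adjusted p = 0.391, SE 0.23). Ankrd1 was rare, with 36, 16, 5 and 4 counts, and did not pass (edgeR adjusted p = 0.1). Dock5, which encodes an exchange factor for Rac, fell by 1.53 (SE 0.27, edgeR adjusted p = 0.00447). Asap1 fell by 1.67 (SE 0.32, edgeR adjusted p = 0.00623) and Tgfb2, which encodes a growth factor, by 1.08 (SE 0.23, edgeR adjusted p = 0.00926). With library size only, 11 were called lower (all genes 29.8%).

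**Figure D5:**
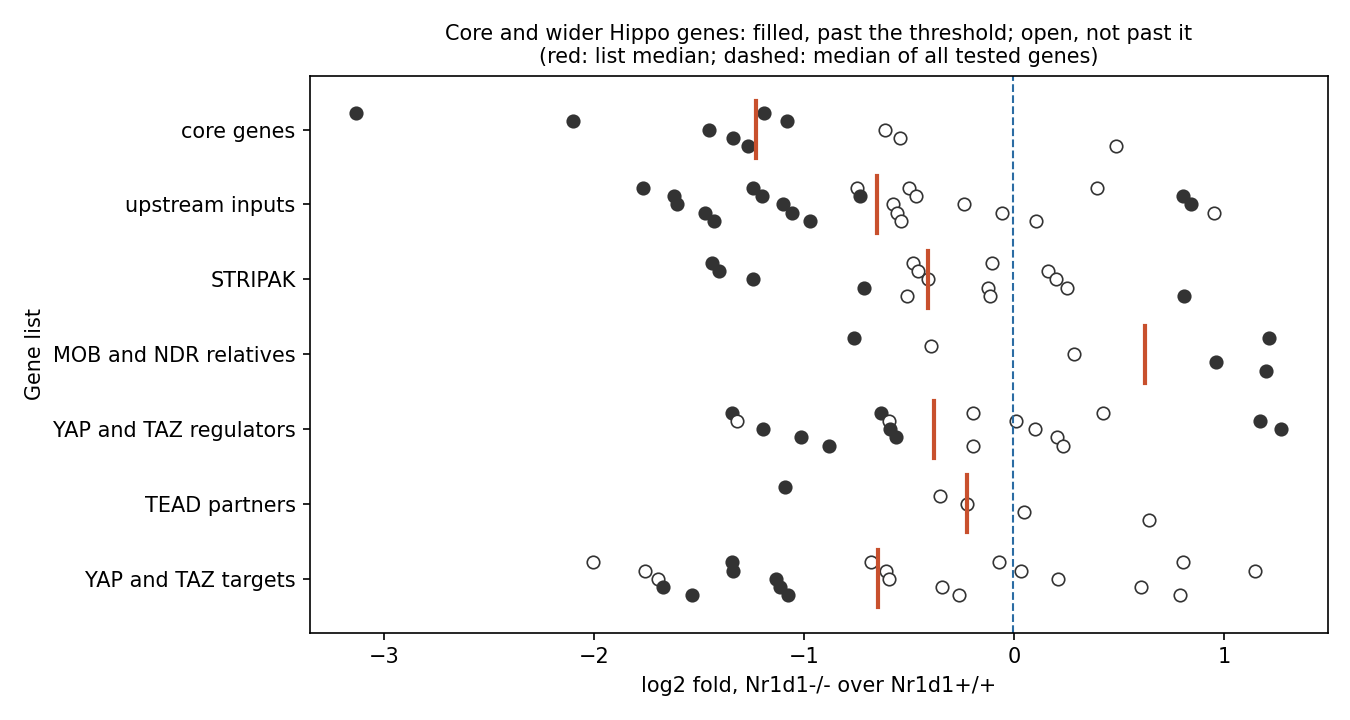
Log2 fold of each tested gene in the core list and 6 wider Hippo lists, filled where the gene passed the threshold and open where it did not, with list medians in red and the median of all tested genes as a dashed line. Medians lie between -1.23 for the core and -0.23 for the TEAD partners, apart from the relatives of MOB1 at 0.62, and the vertical spread of points has no meaning.

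The 5 genes closest to Mob1a over the 4 libraries were Gm10409 (0.32), Gm20752 (0.37), Edem3 (0.43), Mug1 (0.46) and Cyp24a1 (0.47). Values in brackets are Euclidean distances of centred log2 CPM, computed with a prior count of 2 that damps the differences of rare genes. With 4 libraries the ranking is a description of 1 shape, low in both Nr1d1-/- libraries. Edem3, which acts in protein quality control of the endoplasmic reticulum, went from 28.6 and 41.99 CPM to 5.06 and 5.15 CPM, and Cyp24a1, the enzyme that breaks down vitamin D, from 17.6 and 20.5 CPM to 1.69 and 1.74 CPM. The other 3 were near or under 1 CPM even in Nr1d1+/+, and Gm10409 and Mug1 had no count in either Nr1d1-/- library. Their log2 folds were -7.03 for Gm10409, -4.63 for Gm20752 and -7.27 for Mug1, beside -3.13 for Mob1a. Their closeness to Mob1a thus leans on the prior count.

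All 9 luminal epithelial markers of the labelled tissue were detected in every library. They summed to 5197 to 6140 CPM in Nr1d1+/+ and 9150 to 9823 CPM in Nr1d1-/-. The sum was mostly the keratin genes Krt8, Krt18 and Krt19, each higher in both Nr1d1-/- libraries. Krt18 alone stood at 2056 and 1654 against 4457 and 3601 CPM. Cdh1 went the other way, at 358 and 305 against 188 and 212 CPM, as did Esrp1, at 118 and 133 against 61.2 and 52.6 CPM. Of the 9 luminal markers 3 were called higher and 2 lower. Marker counts of this and the following cell types stand beside 16.5% higher and 17.3% lower among all tested genes. Basal markers summed to 161 and 172 CPM against 365 and 512 CPM (4 of 7 higher, 1 lower), endothelial markers to 50.2 and 60.9 against 75.4 and 113 CPM (3 of 8 higher) and adipocyte markers to 264 and 176 against 1422 and 777 CPM (3 of 5 tested higher). Of the endothelial markers, Kdr went the other way, at 3.97 and 7.09 against 1.91 and 3.04 CPM. So did Cdh5, at 11.9 and 13.3 against 6.82 and 11.4 CPM, though no endothelial marker was called lower. The adipocyte sum was mostly Lpl, at 239 and 131 against 1304 and 689 CPM, and Lep had no count in either Nr1d1-/- library. Red blood cell markers summed to 453 and 581 against 2017 and 2194 CPM (5 of 5 tested higher). Fibroblast sums overlapped between the genotypes, at 847 and 1451 against 1218 and 1462 CPM (1 of 8 markers higher). Macrophage markers summed to 299 and 368 against 368 and 467 CPM (1 of 8 higher, 1 lower). T cell markers summed to 10.9 and 13.7 against 21.2 and 19.5 CPM (2 of 6 higher). Cd3d, Cd4 and Cd2 were higher in both Nr1d1-/- libraries, with Cd3d at 3.93 and 3.97 against 11.6 and 10.4 CPM. Cd8a went the other way, from 18 and 13 counts to 0 and 2, and Cd3e and Cd3g overlapped. Of the 4 B cell markers, 1 had no count in any library and the sums stayed between 0.144 and 1.25 CPM. The ribosomal RNA precursor Rn45s took 2.94% and 3.39% of counts in Nr1d1+/+ and 4.36% and 7.64% in Nr1d1-/-. The part of these shifts in the Hippo values was not tested.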

How the data were processed

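RNA was measured in 4 mammary tumour libraries, 2 per genotype. Per the labels' protocols, Trizol was used on the tissue and a SMARTer stranded kit on its total RNA. Per the submitters' processing notes, TopHat and mm10 were used; the versions, the counting program, its annotation and its strand setting are named in none of the sources used here. The values the authors deposited are whole-number counts for each symbol, not normalised. Genes were filtered with filterByExpr (minimum count 10), scaled by TMM and compared by edgeR 4.0.16 (R 4.3.3; quasi-likelihood, legacy=FALSE) between genotypes, leaving 2 residual degrees of freedom, with Benjamini-Hochberg adjustment. Lengths and GC content came from the longest coding transcript in GENCODE M21 (GRCm38, the assembly of mm10). Of 23282 rows, 22230 matched directly, 677 by a synonym and 375 not at all. Trends were removed as offsets from splines with 5 degrees of freedom. DESeq2 1.42.0 and limma 3.58.1 (voom) were alternatives. The tests were tested on simulated data. Named genes were the core genes, Nr1d1, 8 anchors, up to 4 called genes per list and direction by lowest p, and the 5 nearest to Mob1a. Members and lists were chosen with earlier results of these data known.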

Additional observations from a re-analysis of the deposited data

How the results depend on the processing

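All 14 alternatives were run. With library size only, 4410 genes were called lower and 1281 higher, and lower calls came to 17 among inputs, 8 in STRIPAK, 2 among TEAD partners and 11 among YAP and TAZ targets, with 0 higher inputs and 0 higher in STRIPAK. With the GC and length trends removed, 1508 genes were called higher, as were 1 core gene, 2 targets and 1 YAP and TAZ regulator, and 0 relatives of MOB1 were lower. The replicate block, alone, gave 1 target higher and 7 core genes lower; joined to removed trends it gave 1 core gene and 2 targets higher and 0 relatives lower, and no other count moved past 1.5 times. The labels do not say what the replicate numbers share. Differences between replicate 1 and replicate 2 correlated at 0.026 over genes between the genotypes, which cannot show whether same-numbered samples were paired. Upper quartile scaling gave 2 targets higher, DESeq2 gave 1, and no filter gave 0 higher in STRIPAK.

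Leaving out each library in turn, calls over all genes ran from 1170 to 2401 lower and from 1036 to 2358 higher. Core genes ran from 4 to 7 lower and 0 to 1 higher, inputs from 5 to 11 and 0 to 2, STRIPAK from 2 to 3 and 0 to 1, relatives of MOB1 from 0 to 1 and 1 to 3, regulators from 4 to 5 lower, TEAD partners from 0 to 1 lower and targets 0 to 1 higher. Mob1a, Lats1, Stk3 and Yap1 were called lower in all 14 alternatives, Sav1 in 13, and Lats2 and Stk4 in 12. Over 47 named genes, 593 of 658 values kept their direction and side of the threshold, 57 no longer passed, 7 newly passed and 1 reversed: the log2 fold of Nr1d1 was 0.14 without Nr1d1+/+ replicate 1, and leaving out each library it ran from -0.80 to 0.14. The cause was not tested. Fits without a library have 3 samples and a lone library assumed to vary like the other group. Counts of 20 and 18 limit the precision of Mob1a.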
